A study of Mus musculus with 20 samples.

Results

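Transcript levels of 35 imprinted genes were followed in mouse germ cells that had lost Chd4 and in their controls. The genes were taken by symbol from a list of well-known imprinted loci. That list and the others used below were chosen with earlier results of these data known, so counts set beside all genes are descriptions. All 35 genes were found among the 53722 genes listed for oocytes and the 55291 listed for spermatogonia. They belong to 8 clusters named for a member (H19-Igf2, Kcnq1ot1, Igf2r, Peg3, Peg10-Sgce, Mest, Dlk1-Meg3, Snrpn-Ube3a) or lie at other loci. In somatic tissues 10 are known to be expressed from the maternal allele, 23 from the paternal allele and 2 from an allele that depends on the tissue.

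Genomic imprinting is the expression of a gene from the allele of only one parent. It rests on DNA methylation marks set in the germ line, which are erased in primordial germ cells and written again in growing oocytes and in male germ cells before birth. Most marks are laid down in the oocyte, at promoters of genes that the embryo then expresses from the unmethylated paternal allele. CHD4 is a chromatin remodelling ATPase of the NuRD complex, which also holds histone deacetylases. These libraries carry no information on alleles or methylation, so all values are the sum over both alleles.

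The 20 libraries formed 10 groups of 2 in mice of a mixed strain made of C57BL/6, 129S1/Sv and FVB/NJ. Non-growing oocytes (NGO) at postnatal day 1 (P1) and P5, and undifferentiated spermatogonia at P3, came from knockouts (DcKO, Chd4 f/-; Ddx4-Cre Tg/+) and controls (Dctrl, Chd4 f/+; Ddx4-Cre Tg/+). These controls therefore carried Cre and could lose 1 allele, and Ddx4-Cre acts throughout the germ line. NGO and growing oocytes (GO) at P10 came from knockouts (GcKO, Chd4 f/f; Gdf9-iCre Tg/+) and from controls (Gctrl, Chd4 f/f) without Cre, and Gdf9-iCre acts in oocytes after birth. The labels do not say that the 2 libraries of a group came from separate animals, so p-values measure the spread between libraries. Levels are in TPM, transcript abundance scaled by gene length and library size, and are given for replicates 1 and 2 in that order. Where a pair of values stands against another, the control libraries come first and the knockout libraries second.

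Recovered depth was 15.3 to 30.1 M reads per library, and 10003 to 18657 genes reached 1 TPM. The summed level of 6 oocyte markers was 42482 to 110976 TPM in oocyte libraries and 31.7 to 80.1 TPM in spermatogonia, and that of 8 spermatogonia markers was 0.412 to 26.7 TPM in oocytes and 606 to 859 TPM in spermatogonia. Each set of cells thus carried its own defining markers. Chd4 stood at 24.7 and 31.2 TPM in P1 controls and 4.32 and 1.9 TPM in P1 knockouts, a log2 difference of -2.87 (SE 0.50, adjusted p = 0.0136). It was 14.5 and 17.9 against 8.28 and 4.94 TPM at P5 (adjusted p = 0.351) and 249 and 286 against 40.2 and 51.7 TPM in spermatogonia (adjusted p = 0.0671). At P10 the controls were already low, at 1.63 and 1.85 TPM in NGO and 1.56 and 2.96 TPM in GO. The knockouts stood at 1.34 and 0.247 TPM in NGO (adjusted p = 0.615) and 0.631 and 1.54 TPM in GO (adjusted p = 0.488). The knockout libraries were lower in all 5 cell groups. Which exons the floxed allele removes is not given in the sources used here, so a value over the whole gene does not measure the deletion itself.

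In each oocyte library 10 to 21 of the 35 imprinted genes reached 1 TPM, as did 10003 to 16264 of the 53722 genes listed. Of the 35 genes, 6 reached 1 TPM in all 16 oocyte libraries and 8 reached it in none. The 6 were Cdkn1c, an inhibitor of cyclin-dependent kinases, Igf2r, which takes up and degrades IGF2, Snrpn, a spliceosome protein, the ubiquitin ligase Ube3a, Impact, a regulator of the GCN2 stress kinase, and the phosphoinositide phosphatase Inpp5f. Among them 3 are classed here as maternally and 3 as paternally expressed. The 8 genes below 1 TPM throughout were Igf2, Kcnq1ot1, Peg10, Rtl1, Meg3, Rian, Mkrn3 and Peg13. In spermatogonia 25 of the 35 genes reached 1 TPM in all 4 libraries.

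For 13 genes the lowest spermatogonia library was above the highest oocyte library. These were H19, Igf2, Peg10, Mest, Meg3, Rian, Ndn, Mkrn3, Peg12, Grb10, Nnat, Sfmbt2 and Inpp5f. H19, a maternally expressed long noncoding RNA, ranged from 49.9 to 104 TPM in spermatogonia and from 0 to 2.95 TPM in oocytes. Sfmbt2, a Polycomb-associated gene, ranged from 52.8 to 67.3 TPM in spermatogonia and from 0 to 6.67 TPM in oocytes. The oocyte and spermatogonia values were normalised separately, so they are set side by side with no test. The share of all genes with such a separation is not given here. Of all genes listed, 17259 to 18657 reached 1 TPM per spermatogonia library and 10003 to 16264 per oocyte library. Whether 13 is many for these cells was not tested.

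**Figure D1:**
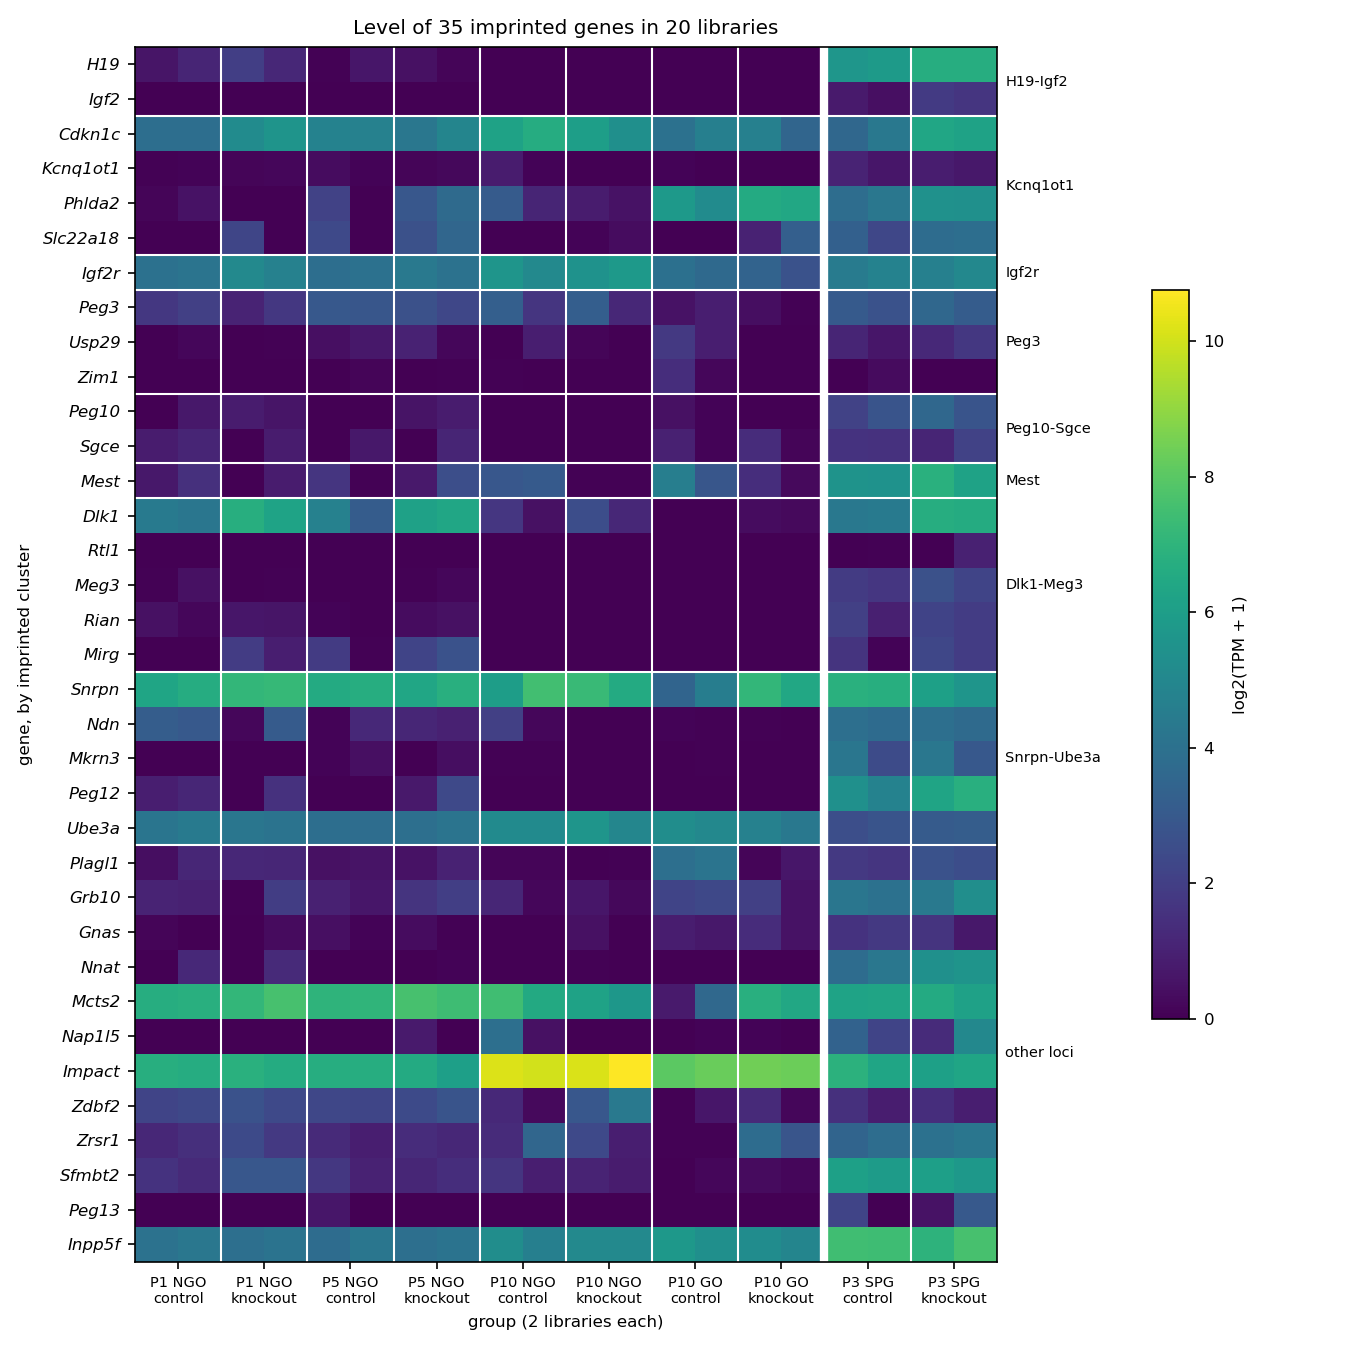
Level of each of the 35 imprinted genes (rows, by cluster) in each of the 20 libraries (columns, 2 per group) as log2(TPM + 1), with a thick white line before the spermatogonia (SPG), which were normalised separately. Cdkn1c, Igf2r, Snrpn, Ube3a, Impact and Inpp5f are at 1 TPM or more in all 16 oocyte libraries, and H19, Sfmbt2 and Peg12 are high in spermatogonia only.

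The clusters were not uniform. In the Kcnq1ot1 cluster Cdkn1c was at 10.4 to 99.3 TPM in oocytes, whereas Phlda2, a growth-restraining gene of the placenta, ran from 0 to 94.1 TPM and Slc22a18, a transporter gene, from 0 to 10.9 TPM. The noncoding RNA Kcnq1ot1 itself stayed between 0.00266 and 0.761 TPM. In the Snrpn-Ube3a cluster Snrpn was at 10.0 to 182 TPM, while its paternally expressed neighbours Ndn, Mkrn3 and Peg12 peaked at 7.90, 0.348 and 4.22 TPM. In the Dlk1-Meg3 cluster Dlk1, a non-canonical Notch ligand, was the only member above 10 TPM in an oocyte library.

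Impact (chromosome 18) was the most abundant member in P10 oocytes. It stood at 106 and 98.7 TPM in P1 controls, 103 and 102 in P5 controls, 1158 and 1043 in P10 NGO controls and 266 and 310.0 TPM in GO controls. The 4 P10 NGO libraries, knockouts included, ranged from 1043 to 1730 TPM, and all others from 65.5 to 343 TPM. The P10 controls carried no Cre and the P1 and P5 controls did, so age and genotype cannot be told apart between those ages.

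Oocyte growth in the controls was examined first, as GO against NGO at P10. Members and genes are called at an adjusted p under 0.05 from limma on log2(TPM + 1), with Benjamini-Hochberg adjustment over the 20470 genes with at least 1 TPM in at least 2 oocyte libraries. Of the 35 genes 24 passed that filter, and 2 rose and 6 fell. Over all genes tested 24.3% were called, 11% higher and 13.2% lower. The libraries are pools of cells, so fewer cells with a transcript and less of it per cell cannot be told apart.

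Plagl1, a zinc finger transcription factor, rose from 0.0994 and 0.0914 TPM in control NGO to 14.1 and 16.6 TPM in control GO, a log2 difference of 3.90 (SE 0.38, adjusted p = 1.91e-05). Phlda2 (chr7:143501545-143503150, minus strand) rose from 7.63 and 1.15 to 55.2 and 35.6 TPM, a log2 difference of 3.40 (SE 0.73, adjusted p = 0.00454). Both GO libraries were above both NGO libraries for each gene. With a pseudocount of 0.1 in place of 1 the call for Phlda2 missed the threshold (adjusted p = 0.0546; 0.00182 to 0.0546 over the alternatives).

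The 6 genes that fell included Impact, Mcts2 and Snrpn. Impact fell from 1158 and 1043 to 266 and 310.0 TPM, by 1.93 on the log2 scale (SE 0.22, adjusted p = 5.60e-05). Mcts2, a retrogene copy of the translation factor gene Mcts1, fell from 176 and 90.8 to 0.722 and 11.5 TPM (log2 difference -4.78, SE 0.67, adjusted p = 0.000236). Snrpn fell from 61.8 and 182 to 10.00 and 22.9 TPM (log2 difference -2.73, SE 0.49, adjusted p = 0.00139). For all 3 genes the NGO libraries were above the GO libraries without overlap. The 2 GO controls differed widely for Mcts2, and its log2 difference ran from -6.21 to -3.35 with single libraries left out.

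Cdkn1c fell from 72.6 and 99.3 to 15 and 24.1 TPM (log2 difference -2.10, SE 0.42, adjusted p = 0.00314), and Igf2r (chr17:12682406-12769664, minus strand) fell from 48.1 and 32.6 to 14.8 and 11.7 TPM (log2 difference -1.52, SE 0.34, adjusted p = 0.00644). Zrsr1, a retrogene copy of the splicing factor gene Zrsr2, fell from 1.5 and 10.9 to 0.0586 and 0.0596 TPM (log2 difference -2.36, SE 0.70, adjusted p = 0.0274). Its GO level came from 2 and 2 reads, and its call was lost in 6 of 11 alternatives, among them leaving out NGO control replicate 2 (adjusted p = 0.247) or either GO control (0.103 and 0.104; 0.00356 to 0.247 over the alternatives). The call for Igf2r was lost without GO control replicate 2 (adjusted p = 0.051; 0.00473 to 0.051 over the alternatives). Peg3, a zinc finger gene at 8.57 and 2.12 TPM in NGO and 0.425 and 0.885 TPM in GO, did not pass (log2 difference -1.74, SE 0.67, adjusted p = 0.0839), though it did without NGO control replicate 2 (adjusted p = 0.0312; 0.0288 to 0.489 over the alternatives).

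**Figure D2:**
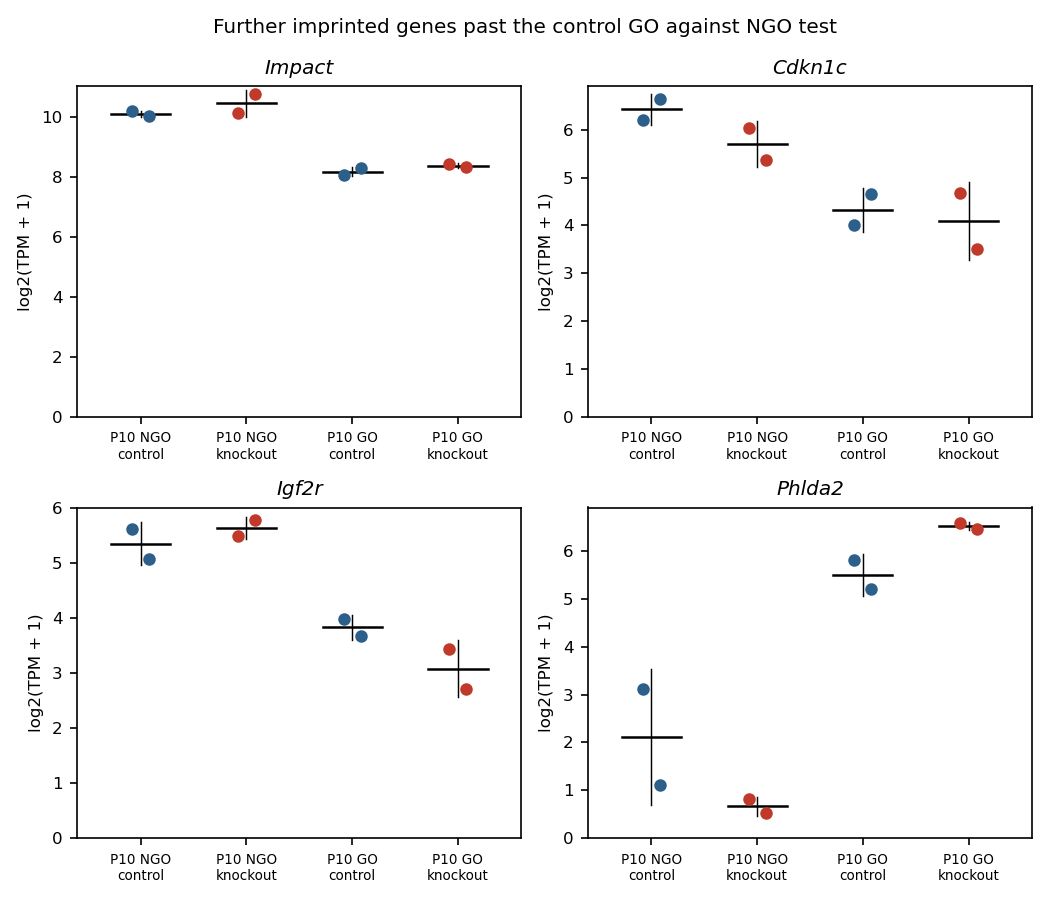
Impact, Cdkn1c, Igf2r and Phlda2 as log2(TPM + 1) in the 4 P10 groups; points are libraries (controls blue, knockouts red), bars are the group mean and lines 1 SD (n = 2). Impact, Cdkn1c and Igf2r are lower in GO controls than in NGO controls and Phlda2 is higher, and in each case the GO knockouts lie on the side of the GO controls.

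The remaining 16 tested members did not pass in this comparison. Inpp5f was at 37.9 and 24.1 TPM in NGO and 51.8 and 40.1 TPM in GO, and Ube3a at 34.5 and 34.2 TPM in NGO and 37.6 and 31.1 TPM in GO. Dlk1, at 2.27 and 0.379 TPM in NGO, was close to 0 in GO at 0.0233 and 0.0237 TPM. Nap1l5, a retrogene that was not tested, was at 14.3 and 0.388 TPM in NGO and 0 and 0.0726 TPM in GO.

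In GO knockouts 6 of the 24 tested members were past the test, 3 upward and 3 downward. Mcts2, Snrpn and Zrsr1 rose, and Plagl1, Mest and Usp29 fell. All 6 are known as paternally expressed genes whose germline mark is set in the oocyte; of the 23 paternally expressed members 16 were tested. Over all genes tested 13.8% were called in this comparison, 9.12% higher and 4.69% lower. Groups did not overlap for 8 members that were higher in knockouts (30.3% of all genes) and 9 that were lower (18%). The GO controls served both here and in the growth comparison, so a gene that was low in those 2 libraries appears as falling with growth and as higher in the knockout.

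The promoters of the 6 genes are shown because these genes carry the result in growing oocytes and because germline marks lie at or near several of these promoters. Each is a RefSeq window of 300 bases (250 before and 50 after a transcript start, GRCm38.p6), read 5′ to 3′ on the gene's strand, with every CpG, the dinucleotide that is methylated, in capitals. For genes with several windows the window with the most CpG is given. The windows lie at chr2:152686898-152687197 (Mcts2, plus strand), chr7:60005150-60005449 (Snrpn, minus), chr11:22971755-22972054 (Zrsr1, plus), chr10:13090582-13090881 (Plagl1, plus), chr6:30737800-30738099 (Mest, plus) and chr7:6730333-6730632 (Usp29, plus).
Mcts2: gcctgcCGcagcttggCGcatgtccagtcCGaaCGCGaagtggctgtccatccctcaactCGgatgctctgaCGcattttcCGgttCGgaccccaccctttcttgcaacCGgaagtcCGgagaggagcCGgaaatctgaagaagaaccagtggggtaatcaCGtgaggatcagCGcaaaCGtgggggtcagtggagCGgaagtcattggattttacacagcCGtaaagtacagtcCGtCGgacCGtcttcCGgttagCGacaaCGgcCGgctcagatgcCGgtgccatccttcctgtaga
Snrpn: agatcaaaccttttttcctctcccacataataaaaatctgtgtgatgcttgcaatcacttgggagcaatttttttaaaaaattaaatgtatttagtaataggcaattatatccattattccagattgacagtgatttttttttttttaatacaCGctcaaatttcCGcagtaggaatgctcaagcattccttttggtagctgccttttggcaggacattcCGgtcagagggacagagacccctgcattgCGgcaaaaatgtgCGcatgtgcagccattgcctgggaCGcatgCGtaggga
Zrsr1: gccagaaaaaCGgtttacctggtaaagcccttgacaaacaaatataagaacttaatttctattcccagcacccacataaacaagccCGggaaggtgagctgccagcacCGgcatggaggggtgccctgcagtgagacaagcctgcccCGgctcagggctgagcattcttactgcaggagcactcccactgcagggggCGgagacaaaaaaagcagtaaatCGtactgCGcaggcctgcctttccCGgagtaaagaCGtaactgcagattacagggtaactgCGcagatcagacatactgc
Plagl1: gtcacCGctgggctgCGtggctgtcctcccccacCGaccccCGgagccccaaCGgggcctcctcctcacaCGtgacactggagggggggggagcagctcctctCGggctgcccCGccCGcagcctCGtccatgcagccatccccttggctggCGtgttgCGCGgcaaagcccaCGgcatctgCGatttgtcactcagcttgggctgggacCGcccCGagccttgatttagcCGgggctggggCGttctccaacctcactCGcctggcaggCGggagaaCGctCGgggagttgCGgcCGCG
Mest: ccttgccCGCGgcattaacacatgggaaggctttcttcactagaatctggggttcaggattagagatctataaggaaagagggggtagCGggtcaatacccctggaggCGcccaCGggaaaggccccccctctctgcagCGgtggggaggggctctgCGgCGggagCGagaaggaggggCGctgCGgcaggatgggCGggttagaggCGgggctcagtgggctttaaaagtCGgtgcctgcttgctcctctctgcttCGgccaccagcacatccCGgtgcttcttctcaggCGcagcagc
Usp29: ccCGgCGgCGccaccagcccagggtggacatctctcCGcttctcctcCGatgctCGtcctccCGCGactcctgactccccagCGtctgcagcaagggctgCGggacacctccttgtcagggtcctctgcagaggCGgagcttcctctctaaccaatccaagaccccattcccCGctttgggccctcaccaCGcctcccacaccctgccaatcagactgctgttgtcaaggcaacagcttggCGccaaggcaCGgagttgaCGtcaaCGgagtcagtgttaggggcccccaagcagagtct

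The 6 windows differed widely in CpG. Plagl1 had 26, Mcts2 25, Mest 17, Usp29 17, Zrsr1 10 and Snrpn 7, against a median of 15 over the 43 windows of the 28 members that matched by symbol and 7 over all 32851 windows. The medians take every window, whereas the richest window of each gene was printed, so these values are not like for like. Other windows of Snrpn had 4, 3 and 2 CpG, and another of Mest had 8. The hexamer TGCCGC, the motif that the imprint-protecting protein ZFP57 is known to bind when methylated, was searched on both strands (GCGGCA on the other). It occurred 2 times in the Mest window, 1 time each in those of Mcts2, Plagl1 and Snrpn, and in neither that of Zrsr1 nor that of Usp29. It was absent from the other Snrpn windows and from the Mest window with 8 CpG. It was present in 27.9% of the member windows and in 11.6% of all windows. These shares were not matched for CpG number, and the hexamer itself holds a CpG. A match is a description of these letters only, and windows of a gene can overlap. The Usp29 window overlaps that of Peg3, which starts on the opposite strand.

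Mcts2 (an intronless gene at chr2:152687035-152687946 on the plus strand) stood at 0.722 and 11.5 TPM in GO controls and 110.1 and 86.6 TPM in GO knockouts, a log2 difference of 4.41 (SE 0.67, adjusted p = 0.000876). Both knockout libraries were far above both controls, while the controls differed widely from each other. Mcts2 has 912 exon bases, so 0.722 TPM rests on few reads. With single libraries left out the log2 difference ran from 2.99 to 5.84. The parent gene Mcts1 was at 29.3 and 8.61 TPM in controls and 33.7 and 22.8 TPM in knockouts (log2 difference 0.75, SE 0.92, adjusted p = 0.738). Reads shared by the copies could be assigned to either by the authors' counting, so the level of each is uncertain to that extent.

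Snrpn (chr7:59982495-60140219, minus strand) stood at 10.00 and 22.9 TPM in controls and 137 and 87.7 TPM in knockouts, a log2 difference of 2.77 (SE 0.49, adjusted p = 0.00246). The groups did not overlap. Snurf, which is transcribed on the same RNA, was listed at 0 in all these libraries, and 34.1% of the exon bases of Snrpn overlap other annotated genes.

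Zrsr1 (chr11:22972005-22976496, plus strand, inside Commd1) stood at 0.0586 and 0.0596 TPM in controls, from 2 and 2 reads, and at 12.8 and 6.08 TPM in knockouts, from 432 and 177 reads. The log2 difference was 3.22 (SE 0.70, adjusted p = 0.00886), and 5.81 with a pseudocount of 0.1. The host Commd1 was at 21.4 and 34.7 against 29.9 and 34.8 TPM, and the parent gene Zrsr2 at 29.6 and 23.2 against 35 and 28.1 TPM (log2 difference 0.25, SE 0.27, adjusted p = 0.664). The call for Zrsr1 was lost without knockout replicate 1 (adjusted p = 0.0619) and without either control (0.0515 each; 0.00157 to 0.0619 over the alternatives).

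Plagl1 (chr10:13060504-13131694, plus strand) showed the opposite pattern. It stood at 14.1 and 16.6 TPM in controls and 0.102 and 0.572 TPM in knockouts, a log2 difference of -3.63 (SE 0.38, adjusted p = 6.41e-05). Both knockout libraries were below 1 TPM and both controls above 14 TPM.

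Mest, which encodes a protein of the alpha/beta hydrolase fold (chr6:30723547-30748465, plus strand), fell from 22.9 and 6.38 to 1.65 and 0.195 TPM (log2 difference -2.90, SE 0.77, adjusted p = 0.0259). The groups did not overlap, but the controls differed from each other more than 3-fold. The call was lost in 7 of 11 alternatives, including without control replicate 1 (adjusted p = 0.213) and without knockout replicate 2 (adjusted p = 0.149; 0.00571 to 0.213 over the alternatives). Copg2, whose exons overlap 23.1% of those of Mest on the other strand, was at 7.35 and 9.23 TPM in controls and 15.1 and 20.4 TPM in knockouts (log2 difference 1.00, SE 0.81, adjusted p = 0.514).

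Usp29, a ubiquitin protease gene (chr7:6730578-6967219, plus strand), was low. It was at 2.42 and 0.896 TPM in controls, from 333 and 121 reads, and 0.00737 and 0.00853 TPM in knockouts, from 1 and 1 read in the 2 libraries. The log2 difference was -1.34 (SE 0.40, adjusted p = 0.0453), and the call was lost in 4 of the 8 alternatives that gave a value, among them those without either knockout replicate (adjusted p = 0.124 and 0.122; 0.0183 to 0.124 over the alternatives). It passed the filter through GO control replicate 1 and 1 P5 knockout library, so it could not be tested without that control, with a filter at 5 TPM or with only the groups compared. Its neighbour Peg3 was at 0.425 and 0.885 against 0.303 and 0.0453 TPM. Zim1, on the far side of Peg3 and not tested, was at 1.63 and 0.133 TPM in controls and listed at 0 in both knockouts.

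**Figure D3:**
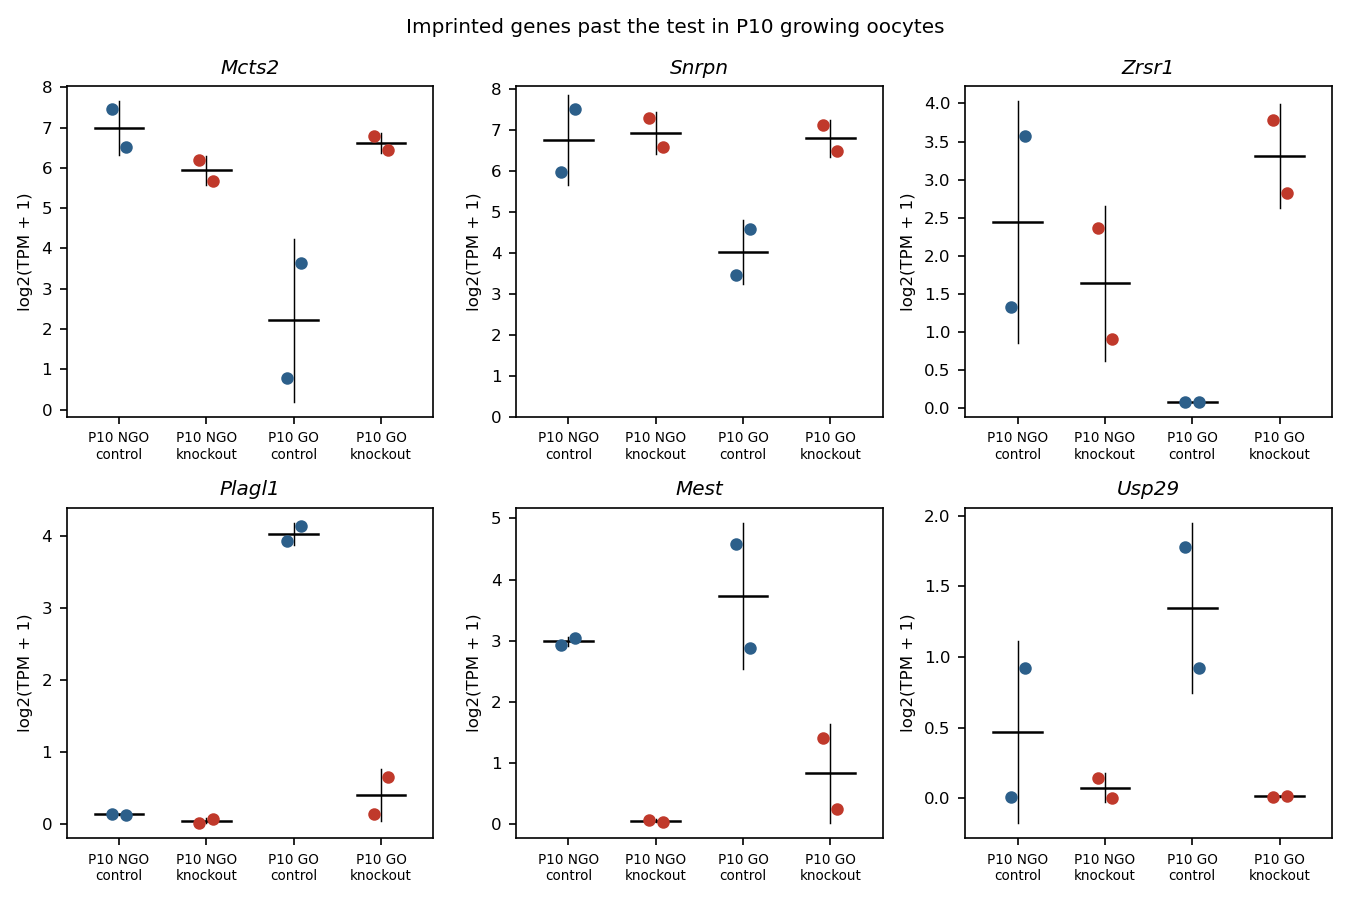
The 6 imprinted genes past the test in GO knockouts against GO controls, as log2(TPM + 1) in the 4 P10 groups; points are libraries (controls blue, knockouts red), bars are the group mean and lines 1 SD (n = 2). Mcts2, Snrpn and Zrsr1 are low in GO controls and higher in the other 3 groups, whereas Plagl1 is above 14 TPM in GO controls and below 1 TPM in the other 3 groups.

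Of the 18 other members tested in GO none passed by limma or limma-voom, and 1 was at an unadjusted p under 0.05. Over all genes tested, called genes included, 25.5% were under 0.05. The 18 leave out the called members, so the shares are not like for like. Phlda2 was at 55.2 and 35.6 TPM in controls and 94.1 and 86.5 TPM in knockouts (log2 difference 1.01, SE 0.73, adjusted p = 0.448), and Impact at 266 and 310.0 against 343 and 319 TPM (log2 difference 0.20, SE 0.22, adjusted p = 0.682). Igf2r was at 14.8 and 11.7 against 9.86 and 5.55 TPM (log2 difference -0.75, SE 0.34, adjusted p = 0.196), and Ube3a at 37.6 and 31.1 against 25.3 and 18.6 TPM (log2 difference -0.63, SE 0.31, adjusted p = 0.229). In each of these 4 genes the groups did not overlap. Slc22a18, listed at 0 in both controls, was at 1.02 and 8.53 TPM in knockouts (adjusted p = 0.153). The median log2 difference over the 24 members was 0, beside 0.06 over all genes tested.

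Other markers also differed between GO knockouts and controls. Of the 6 oocyte markers 3 rose, beside 9.12% of all genes tested. Their summed level was 49455 and 50942 TPM in GO controls and 100086 and 110976 TPM in GO knockouts. Nearly all of that sum was Dppa3, at 45242 and 46799 TPM in controls and 94336 and 105478 TPM in knockouts. Figla, an oocyte transcription factor, was at 316 and 468 against 965 and 753 TPM. The summed level of 10 stromal markers was 0.0606 and 0 against 2.55 and 1.61 TPM, and that of 7 blood markers 0 and 0.213 against 1.94 and 0 TPM. The 5 steroidogenic markers summed to 8.07 and 4.49 against 23.7 and 17.5 TPM, higher in the knockouts without overlap, and the 3 germ cell markers to 666 and 713 against 616 and 521 TPM, lower without overlap. The 6 endothelial markers summed to 6.64 and 2.96 against 104 and 2.93 TPM, where Pecam1, which germ cells also express, gave 98.6 and 2.3 TPM in the knockouts. Their part in the results on imprinted genes was not tested. Among all genes past the test 66.0% were higher in knockouts, and 52.6% after quantile normalisation, while 3 members were higher and 3 lower under both.

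Whether the effect of the knockout differed between the stages was tested as the difference of the 2 log2 differences, GO minus NGO. It passed for 4 of 24 members, beside 7.46% of all genes tested (4.84% higher and 2.62% lower). It was 5.47 (SE 0.94, adjusted p = 0.00511) for Mcts2, 4.03 (SE 0.99, adjusted p = 0.0301) for Zrsr1, 2.59 (SE 0.69, adjusted p = 0.0418) for Snrpn and -3.54 (SE 0.54, adjusted p = 0.00248) for Plagl1. In NGO these 4 genes had shown no call. Mcts2 was at 176 and 90.8 TPM in NGO controls and 72.4 and 50.2 TPM in NGO knockouts. Snrpn was at 61.8 and 182 against 155 and 93.8 TPM, and Zrsr1 at 1.5 and 10.9 against 4.13 and 0.882 TPM. Plagl1 was at 0.0994 and 0.0914 against 0.0136 and 0.0475 TPM. For Snrpn and Zrsr1 the P10 NGO controls differed from each other more than 2-fold, and both calls were lost on leaving out single libraries. For Snrpn these were GO knockout replicate 1 (adjusted p = 0.111), GO control replicate 1 (0.146), NGO knockout replicate 2 (0.122) and NGO control replicate 2 (0.115; 0.00954 to 0.162 over the alternatives). For Zrsr1 they were the same 4 (0.0815, 0.0821, 0.0937 and 0.0754) and GO control replicate 2 (0.0786; 0.0065 to 0.148 over the alternatives). Leaving out 1 library did not end the calls for Mcts2 and Plagl1, while limma-voom ended that for Plagl1 (adjusted p = 0.0895; 0.00208 to 0.0895 over the alternatives) and fitting only the groups compared ended that for Mcts2 (adjusted p = 0.0604; 0.000197 to 0.0604 over the alternatives).

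In P10 NGO 1 of 24 members was called, beside 1.92% of all genes tested (1.02% higher, 0.899% lower). Groups did not overlap for 2 members that were higher in knockouts (17.4% of all genes) and 6 that were lower (17%). Zdbf2 (chr1:63273265-63314576, plus strand), a zinc finger gene, rose from 1.34 and 0.226 TPM in controls to 6.58 and 19.4 TPM in knockouts (log2 difference 2.88, SE 0.57, adjusted p = 0.0264). Both knockout libraries were above both controls, and the 2 libraries within each group differed about 3-fold or more. The call was lost in 7 of 11 alternatives, including without knockout replicate 2 (adjusted p = 0.104) and without control replicate 2 (adjusted p = 0.121; 0.00828 to 0.387 over the alternatives). In the other 9 groups Zdbf2 stayed between 0.0520 and 6.01 TPM.

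Mest was the next in order in NGO. It stood at 6.67 and 7.25 TPM in controls and 0.0538 and 0.0314 TPM in knockouts, the latter from 2 and 1 reads, and the log2 difference of -2.93 (SE 0.77, adjusted p = 0.0834) missed the threshold. It passed after quantile normalisation (adjusted p = 0.0283) and with limma-voom on recovered reads (adjusted p = 0.0433; 0.0283 to 0.362 over the alternatives). Cdkn1c was at 72.6 and 99.3 TPM in NGO controls and 65.1 and 40.3 TPM in knockouts, and Mcts2 was also lower without overlap, with log2 differences of -0.72 (SE 0.42, adjusted p = 0.481) and -1.05 (SE 0.67, adjusted p = 0.522). Nap1l5, which was not tested, was at 14.3 and 0.388 TPM in NGO controls and listed at 0 in both knockouts.

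At P1 no member passed the limma test, although 5 of 24 had an unadjusted p under 0.05, as did 10.2% of all genes tested. Over all genes 1.7% were called. Limma-voom on recovered reads called Dlk1 (adjusted p = 0.033) and Mirg, a noncoding RNA that hosts microRNAs (0.043). Mirg was at 0 and 0.0172 against 2.71 and 0.865 TPM (limma adjusted p = 0.313). Groups did not overlap for 11 members that were higher in knockouts (18.4% of all genes) and for 3 that were lower (22.5%), namely Phlda2, Peg3 and Sgce.

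Dlk1 (chr12:109452823-109463336, plus strand) had the largest difference among members at P1. It stood at 19.9 and 17.5 TPM in controls and 105 and 73.9 TPM in knockouts (log2 difference 2.18, SE 0.60, adjusted p = 0.122; adjusted p 0.0272 to 0.444 over the alternatives). Cdkn1c (chr7:143458339-143461050, minus strand) was at 13.7 and 13.7 against 35.9 and 46.1 TPM (log2 difference 1.5, SE 0.42, adjusted p = 0.129), and Sfmbt2 at 1.99 and 1.45 against 6.67 and 6.5 TPM (log2 difference 1.49, SE 0.41, adjusted p = 0.114). In all 3 genes both knockout libraries were above both controls by more than the gap within either group. Igf2r was at 15.2 and 16.5 against 32 and 25.3 TPM, Snrpn at 79.1 and 101 against 137 and 148 TPM, and Mcts2 at 103 and 109.9 against 139 and 197 TPM, all without overlap and none past the test (adjusted p = 0.431, 0.806 and 0.94).

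At P5 Dlk1 again had the largest difference. No member passed the limma test, 4 of 24 had an unadjusted p under 0.05, as did 11.8% of all genes tested, and 1.36% of all genes were called. Dlk1 stood at 25.8 and 7.78 TPM in controls and 70.2 and 80.4 TPM in knockouts (log2 difference 2.31, SE 0.60, adjusted p = 0.099). It passed after quantile normalisation (adjusted p = 0.0404), with limma-voom on recovered reads (0.027) and without control replicate 1 (0.040; 0.027 to 0.664 over the alternatives). Without that control Mirg, of the same cluster, passed too (adjusted p = 0.0199, against 0.232 with all libraries), and it was at 2.67 and 0.0456 TPM in controls and 3.61 and 5.62 TPM in knockouts.

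Cdkn1c, at 26.1 and 25.2 TPM in P5 controls and 18 and 28.7 TPM in P5 knockouts, overlapped between the groups, as did Sfmbt2 at 2.36 and 1.06 against 1.21 and 1.63 TPM. Phlda2 was at 3.35 and 0 against 6.51 and 12 TPM (log2 difference 2.25, SE 0.73, adjusted p = 0.198), and its neighbour Slc22a18 at 4.17 and 0 against 5.38 and 10.9 TPM (log2 difference 1.94, SE 0.89, adjusted p = 0.426). Peg12 was listed at 0 in both controls and at 0.662 and 4.22 TPM in knockouts (adjusted p = 0.223). Groups did not overlap for 10 members higher in knockouts (23.9% of all genes) and 2 lower (23.4%), the latter Peg3 and Impact. After quantile normalisation 13 members, in place of 18, had a difference above 0 at P5.

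The log2 difference at P5 minus that at P1 passed for 0 of 24 members by limma, and for 0 with limma-voom, beside 0.313% of all genes called. At an unadjusted p under 0.05 were 4 of 24 members and 7.35% of all genes. For Cdkn1c it was -1.67 (SE 0.60, adjusted p = 0.445) and for Sfmbt2 -1.61 (SE 0.57, adjusted p = 0.426). The controls of the 2 ages were also compared. No member passed by limma or limma-voom, where 4.7% of all genes were called, and 1 of 24 was at an unadjusted p under 0.05, as were 16.3% of all genes. Ndn, an imprinted growth regulator, was at 7.9 and 6.92 TPM at P1 and 0.0898 and 1.35 TPM at P5 (log2 difference -2.39, SE 0.80, adjusted p = 0.136), and passed only when those 2 groups were fitted alone (adjusted p = 0.0333; 0.0333 to 0.511 over the alternatives).

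Summed endothelial markers were higher with Dlk1 in these oocytes, with no single marker past the test. The 6 endothelial markers summed to 8.68 and 10.8 TPM in P1 controls and 28.3 and 24.8 TPM in P1 knockouts, and to 14.6 and 5.31 against 25.5 and 25.9 TPM at P5. The 12 supporting cell markers summed to 19.5 and 27.2 against 17.4 and 26.1 TPM at P1 and to 10.3 and 5.73 against 25.8 and 62 TPM at P5. The 10 stromal markers summed to 7.69 and 6.66 against 3.09 and 5.84 TPM at P1 and to 3.63 and 5.55 against 3.84 and 10.2 TPM at P5. Of the endothelial list Kdr and Tek stayed below 2 TPM in all 8 libraries, and of the supporting cell list Amh, Fshr and Foxl2 below 1 TPM. The higher sums in knockouts therefore came mostly from other markers of these lists. At P5 1 of 8 tested supporting cell markers rose, beside 1.36% of all genes called in either direction. Of the 6 oocyte markers 3 fell at P1, beside 1.7% of all genes called in either direction. Zp3, a zona pellucida gene, was at 74.4 and 134 against 29.9 and 17.1 TPM at P1. The 3 germ cell markers summed to 1984 and 2253 against 2516 and 2568 TPM at P1 and to 1327 and 1329 against 1482 and 1753 TPM at P5, higher in knockouts without overlap at both ages. The part of these markers in the levels of Dlk1 was not tested.

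**Figure D4:**
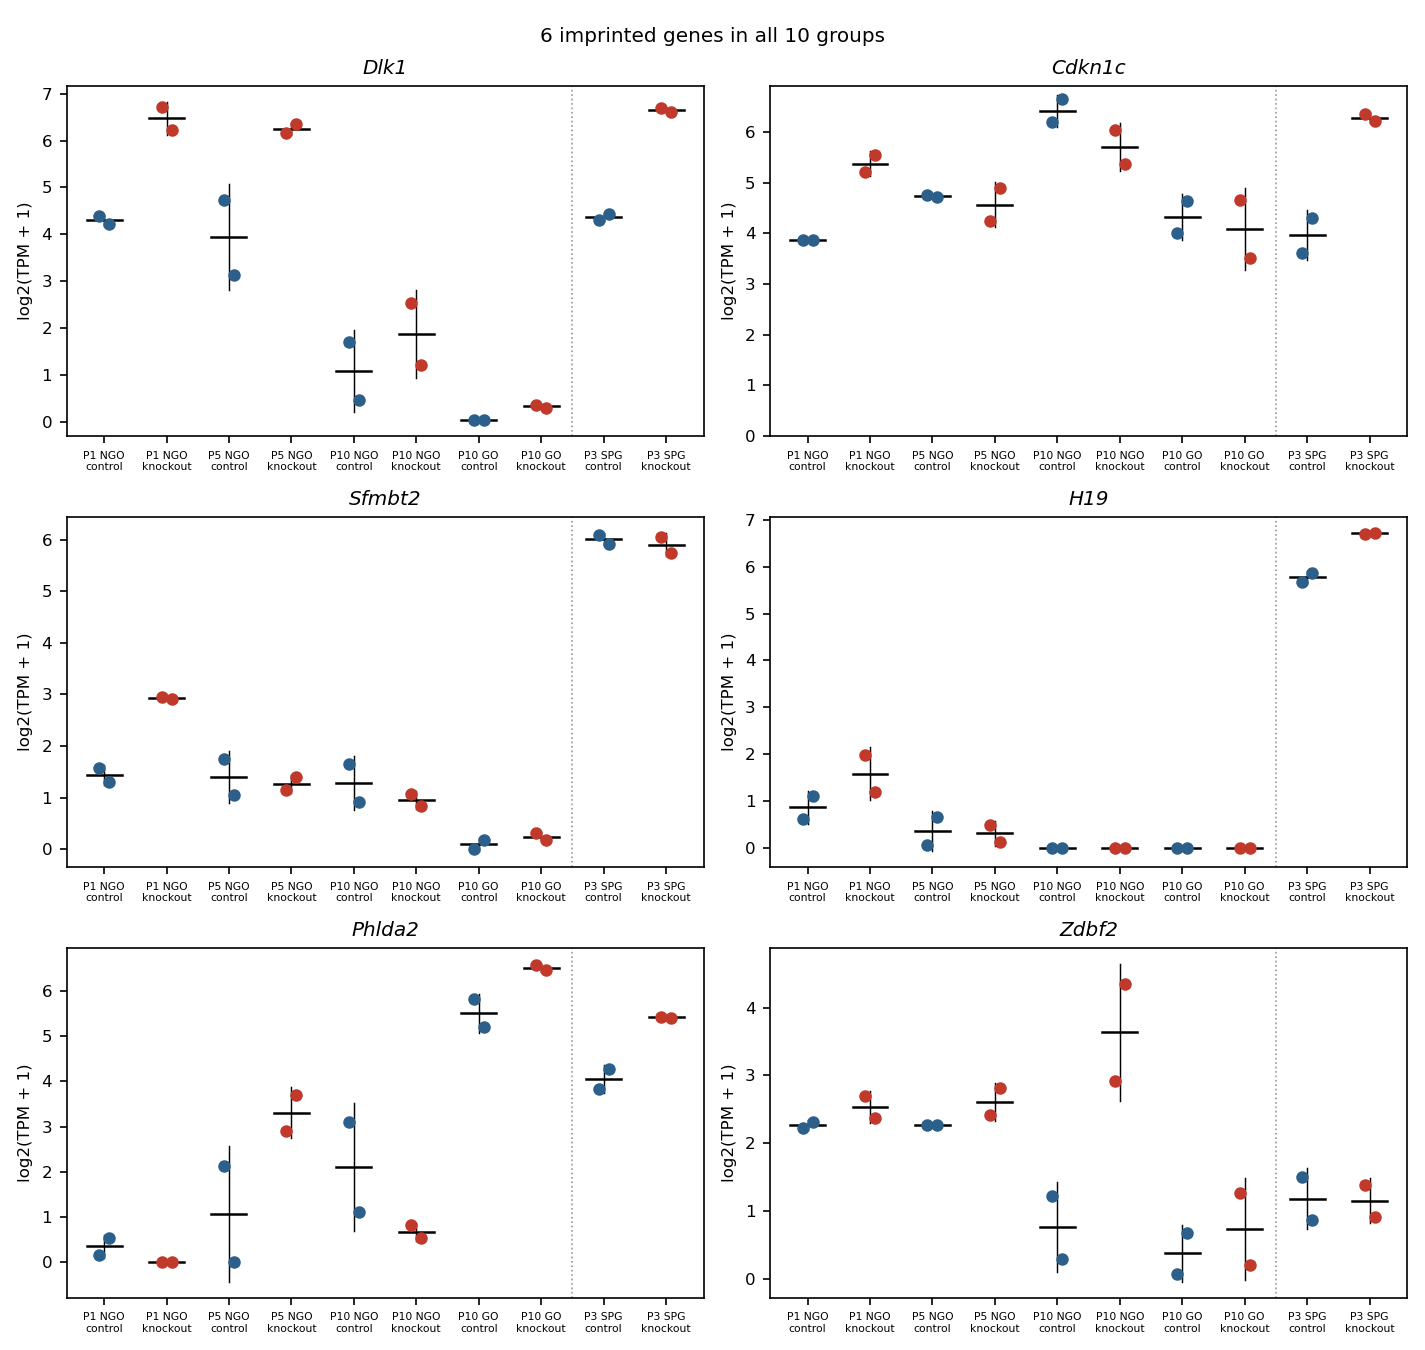
Dlk1, Cdkn1c, Sfmbt2, H19, Phlda2 and Zdbf2 as log2(TPM + 1) in all 10 groups; points are libraries (controls blue, knockouts red), bars are the group mean and lines 1 SD (n = 2), and the dotted line sets off the spermatogonia (SPG), which were normalised separately. Dlk1 is higher in knockouts than in controls without overlap at P1, P5 and in spermatogonia (and, at low levels, in GO), Cdkn1c and Sfmbt2 differ at P1 but overlap at P5, and Zdbf2 is highest in P10 NGO knockouts.

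In spermatogonia 32 of the 35 genes were tested and 0 passed the limma test, as was true of all 18671 genes tested (0% called; 0 members with limma-voom). At an unadjusted p under 0.05 were 8 of 32 members and 16.1% of all genes. Groups did not overlap for 18 members that were higher in knockouts (27.9% of all genes) and for 1 that was lower (18%). The median log2 difference was 0.58 over the 32 members and 0.09 over all genes tested. Quantile normalisation moved the median of all genes by -0.15, left 24 in place of 25 members above 0 and gave a member median of 0.24.

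Dlk1 and Cdkn1c differed most. Dlk1 stood at 18.7 and 20.5 TPM in controls and 103 and 96.8 TPM in knockouts (log2 difference 2.30, SE 0.21, adjusted p = 0.0745), and Cdkn1c at 11.2 and 18.8 against 81.5 and 73.3 TPM (log2 difference 2.33, SE 0.31, adjusted p = 0.105). In both genes the knockouts agreed closely with each other and lay far above both controls. With genes filtered at 5 TPM in place of 1 both were called (adjusted p = 0.0235 and 0.0392; 0.0235 to 0.318 and 0.0392 to 0.368 over the alternatives).

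H19 (chr7:142575529-142578143, minus strand) was at 49.9 and 57.5 TPM in controls and 103 and 104 TPM in knockouts (log2 difference 0.94, SE 0.18, adjusted p = 0.148), and its neighbour Igf2, the growth factor gene, at 0.73 and 0.364 against 2.58 and 2.13 TPM (log2 difference 1.12, SE 0.55, adjusted p = 0.396). Phlda2 was at 13.3 and 18.3 against 42.1 and 41 TPM (log2 difference 1.36, SE 0.29, adjusted p = 0.154). Nnat, a small membrane protein gene, was at 12.8 and 18.2 against 40.7 and 46.5 TPM (log2 difference 1.45, SE 0.30, adjusted p = 0.153). Each of these 4 genes was higher in knockouts without overlap and short of the threshold.

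Peg12, an intronless gene of the Frat family, was at 41.7 and 26.1 TPM in controls and 75.9 and 111 TPM in knockouts (log2 difference 1.44, SE 0.31, adjusted p = 0.155), and Mest at 45 and 43.6 against 112 and 72.9 TPM (log2 difference 1.01, SE 0.26, adjusted p = 0.18). Slc22a18 was at 8.95 and 3.88 against 12.9 and 13.9 TPM (adjusted p = 0.385). Snrpn was the only member that was lower without overlap, at 112 and 106 TPM in controls and 67.3 and 48 TPM in knockouts (log2 difference -0.93, SE 0.22, adjusted p = 0.173). Within its cluster Peg12 was thus higher, Snrpn lower, and Ndn at 14.4 and 12.5 against 14.4 and 12.2 TPM overlapped between the groups. Sfmbt2 at 67.3 and 59.7 against 65.6 and 52.8 TPM and Impact at 120.5 and 79.2 against 69 and 79.9 TPM overlapped as well.

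The rest of the Dlk1-Meg3 cluster differed less than Dlk1. Meg3, a maternally expressed noncoding RNA, was at 2.65 and 2.26 against 5.38 and 3.62 TPM (log2 difference 0.65, SE 0.55, adjusted p = 0.651), and Mirg at 2.06 and 0.0635 against 3.89 and 2.71 TPM (log2 difference 1.24, SE 0.71, adjusted p = 0.466). Rian, at 3.06 and 0.952 against 3.44 and 2.79 TPM, overlapped between the groups, and Rtl1 was not tested. The paternally expressed Dlk1 and the maternally expressed Meg3 and Mirg thus had differences of the same sign, as had the paternally expressed Igf2 and the maternally expressed H19.

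The genes called in GO knockouts were also examined in spermatogonia. Mcts2 was at 74.6 and 75.9 against 93.9 and 69.7 TPM, with overlap. Zrsr1 was at 10.2 and 13.3 against 15.2 and 17.4 TPM (log2 difference 0.45, SE 0.36, adjusted p = 0.627), Plagl1 at 2.41 and 2.12 against 5.58 and 4.89 TPM (log2 difference 0.93, SE 0.53, adjusted p = 0.464), and Usp29 at 1.14 and 0.557 against 1.36 and 2.36 TPM (log2 difference 0.62, SE 0.58, adjusted p = 0.69). Of the 3 genes that had risen in GO, Snrpn had the opposite sign here, and the 3 genes that had fallen in GO, Plagl1, Mest and Usp29, all had positive differences here. So had 25 of the 32 members tested in spermatogonia, and none passed the limma test. The difference between cell types was not tested, because the tables were normalised separately.

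**Figure D5:**
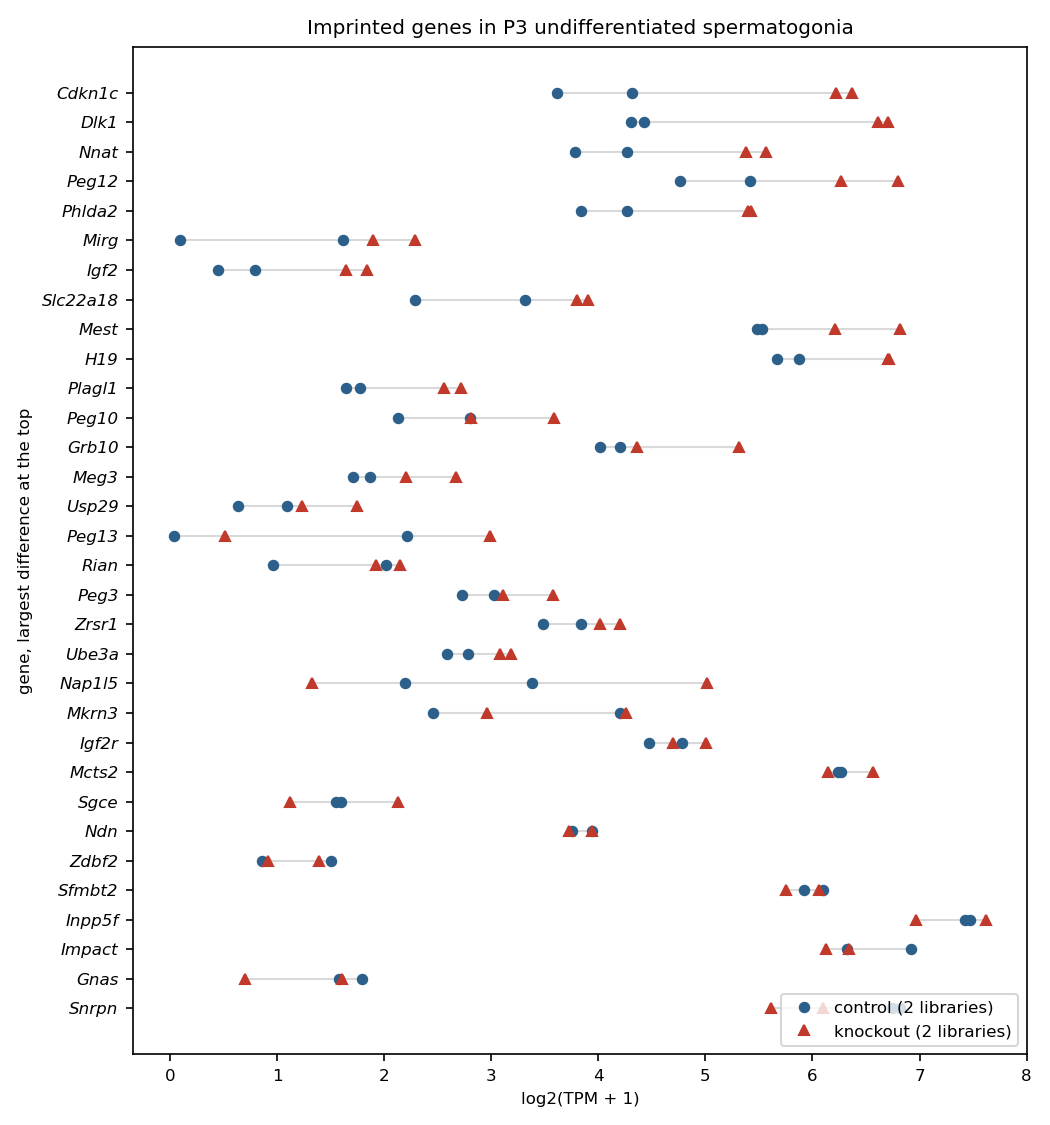
The 32 imprinted genes tested in P3 undifferentiated spermatogonia, ordered by log2 difference, as log2(TPM + 1) per library; blue circles are the 2 control and red triangles the 2 knockout libraries. Cdkn1c and Dlk1 at the top are furthest above their controls, and of the genes without overlap only Snrpn is lower.

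Summed markers of stroma, endothelium, blood, steroidogenic cells and oocytes were higher in both knockout libraries of spermatogonia than in both controls. The 10 stromal markers summed to 11.9 and 12.6 TPM in controls and 48.4 and 43.6 TPM in knockouts, with Lum at 0 in all 4 libraries and Col1a1 at 5.6 and 7.81 against 24.1 and 27.4 TPM. The 6 endothelial markers summed to 68.4 and 82.3 against 149.9 and 147 TPM, the 7 blood markers to 28.1 and 37.9 against 71.3 and 98.8 TPM, nearly all of it Cd68, and the 12 supporting cell markers to 124 and 64.2 against 123 and 132 TPM. The 5 steroidogenic markers summed to 1.79 and 2.44 against 4.62 and 9.59 TPM, and the 6 oocyte markers to 31.7 and 44.8 against 68.8 and 80.1 TPM. The 3 germ cell markers were lower in both knockouts, at 2804 and 3071 against 2798 and 2676 TPM. The 8 spermatogonia markers summed to 682 and 859 TPM in controls and 619.6 and 606 TPM in knockouts. Their part in the levels of the imprinted genes was not tested.

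By parental class, the 7 tested maternally expressed members gave no call by limma with all libraries in the 4 knockout comparisons in oocytes (Mirg is among them, called by limma-voom at P1 and without control replicate 1 at P5), and the 16 tested paternally expressed members gave 6 in GO and 1 in P10 NGO. In the growth comparison the maternally expressed members gave 1 rise and 2 falls, and the paternally expressed members 1 rise and 4 falls. In spermatogonia all 9 tested maternally expressed members had a log2 difference above 0, 7 of them without overlap, as had 15 of the 21 paternally expressed members, 10 of them without overlap. Over all genes tested 1.7% were called at P1, 1.36% at P5, 1.92% in P10 NGO and 13.8% in GO knockouts. In control growth 11% of all genes rose and 13.2% fell. In spermatogonia 27.9% of all genes were higher without overlap. Whether the classes differed was not tested. Of the members with a paternal germline mark, H19, Dlk1 and Mirg were tested in oocytes. Limma with all libraries called none of them in the knockout comparisons, and limma-voom called Dlk1 and Mirg at P1 and Dlk1 at P5. Zdbf2 is not counted in this class, because its mark is uncertain and these libraries, without methylation, cannot check it. It was called in P10 NGO by limma with all libraries but not by limma-voom (adjusted p = 0.0582).

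Of 39 further imprinted genes 27 were tested, and in GO knockouts 6 rose and 2 fell. Over all genes tested 9.12% rose and 4.69% fell. Gpr1, a receptor gene next to Zdbf2, stood at 0.363 and 0.63 TPM in NGO controls, 52.4 and 75.2 TPM in GO controls and 0.16 and 0.556 TPM in GO knockouts. It reached 1 TPM in no oocyte libraries but the 2 GO controls and so was tested only through the group where it is high, which makes its call, 1 of the 2 falls, a description. Jade1, a chromatin gene, ran the other way, at 48 and 28.2 TPM in NGO controls, 1.13 and 1.07 TPM in GO controls and 19.99 and 12.6 TPM in GO knockouts (log2 difference 3.01, SE 0.42, adjusted p = 0.000504). Cd81 and Th also rose in GO knockouts, by log2 differences of 3.76 (SE 0.58, adjusted p = 0.00102) and 1.77 (SE 0.19, adjusted p = 8.56e-05). By limma none of the 27 passed in the other 3 knockout comparisons in oocytes, nor did any of the 25 tested in spermatogonia. Over all genes 1.7% were called at P1, 1.36% at P5, 1.92% in P10 NGO and 0% in spermatogonia. At an unadjusted p under 0.05 were 8 at P1 (10.2% of all genes tested), 1 at P5 (11.8%), 6 in P10 NGO (15.6%) and 11 in spermatogonia (16.1%).

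Of 8 genes that host or neighbour the members, limma called none in GO knockouts, and none had an unadjusted p under 0.05. Over all genes tested these shares were 13.8% and 25.5%. In control growth Herc3, the host of Nap1l5, rose and Commd1, the host of Zrsr1, fell, with log2 differences of 2.21 (SE 0.63, adjusted p = 0.0229) and -0.98 (SE 0.31, adjusted p = 0.0374). Over all genes tested 24.3% were called in control growth.

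Of 21 genes that set, read or protect imprints, 20 were tested in oocytes. Zfp57, which maintains methylation at imprinted control regions, fell in P1 knockouts from 139.8 and 130.1 to 45.7 and 39.1 TPM (log2 difference -1.65, SE 0.20, adjusted p = 0.00191) and in P5 knockouts from 207 and 250.3 to 89.7 and 85.8 TPM (log2 difference -1.37, SE 0.20, adjusted p = 0.00813). It was the only regulator called at either age, beside 1.7% of all genes at P1 and 1.36% at P5. At P10 its groups stood at 159 and 218 against 128 and 109.6 TPM in NGO and 538 and 552 against 739 and 599 TPM in GO. In spermatogonia it was at 16.5 and 16.3 TPM in controls and 36 and 50.7 TPM in knockouts (adjusted p = 0.156).

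In GO knockouts 3 regulators rose and 1 fell, beside 9.12% higher and 4.69% lower over all genes tested. The one that fell was Dnmt3l, the cofactor required for laying down maternal imprints in growing oocytes, which stood at 0.13 and 0.0478 TPM in NGO controls, 3.96 and 11.9 TPM in GO controls and 0.134 and 0 TPM in GO knockouts. It too reached 1 TPM in the 2 GO controls alone among the oocyte libraries, so its calls here and in control growth are descriptions. Those that rose were Dppa3, which protects the maternal genome from demethylation, Nlrp5, a maternal effect gene, and Ctcfl, the testis paralogue of CTCF, with log2 differences of 1.12 (SE 0.08, adjusted p = 4.43e-06), 1.29 (SE 0.35, adjusted p = 0.0273) and 2.18 (SE 0.58, adjusted p = 0.0267). In control growth 5 regulators rose and 4 fell, beside 11% higher and 13.2% lower over all genes tested. Those with the smallest p were Nlrp2, Dnmt1, Zfp57 and Dnmt3l, which all rose, the first 3 with log2 differences of 4.98 (SE 0.51, adjusted p = 2.44e-05), 3.30 (SE 0.43, adjusted p = 0.000143) and 1.54 (SE 0.20, adjusted p = 0.000143).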

How the data were processed

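RNA was sequenced from 16 oocyte and 4 spermatogonia libraries with a low-input kit and paired reads, per the labels' protocols. The authors deposited TPM per gene. The submitters' processing notes name Trimmomatic 0.39, STAR 2.5.4b, SAMtools 1.9, featureCounts 2.0.1 and GRCm38; the annotation, strandedness and TPM step are not given in the sources used here. Reads were recovered from TPM and GENCODE M21 exon lengths, and of those below 20 reads 98.7% to 99.2% were whole to 0.05 read in each library.

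Tests used limma 3.58.1 in R 4.3.3 (lmFit, contrasts.fit, eBayes with a trend, two-sided) on log2(TPM + 1), a scale that understates changes of low genes. The 16 oocyte libraries were fitted together (8 residual degrees of freedom) and the 4 spermatogonia libraries alone (2). Genes needed 1 TPM in 2 libraries. P-values were adjusted over all genes tested, at a threshold of 0.05. The code was tested on simulated data. Tables and figures were made in Python 3.11.15 with matplotlib 3.10.9, numpy 2.4.6 and pandas 2.3.3.

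The members and lists were chosen with earlier results of these data known. Named are members past the test, then up to 8 with a mean of 5 TPM and no overlap, those that complete a cluster, and up to 4 list genes past the test with the smallest p. Alternatives were a pseudocount of 0.1, a filter at 5 TPM, no filter, quantile normalisation, limma-voom on recovered reads, a replicate block, fitting only the groups compared, and leaving out each library. The log2 values and counts of reads were computed here from the deposited TPM. A gene listed at 0 may be a failed estimate. Gene positions are from GENCODE M21 (GRCm38). Promoter sequences are from RefSeq (GRCm38.p6).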

Additional observations from a re-analysis of the deposited data

Results flagged for a closer look

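The following 4 results are listed because the effect of the knockout differed between growing and non-growing oocytes at P10 by the test of the difference itself. The difference of log2 differences, GO minus NGO, was 5.47 for Mcts2, 2.59 for Snrpn, 4.03 for Zrsr1 and -3.54 for Plagl1 (limma adjusted p = 0.00511, 0.0418, 0.0301 and 0.00248). Snrpn and Zrsr1 each passed in 7 of 15 alternatives (adjusted p 0.00954 to 0.162 and 0.0065 to 0.148), and Mcts2 and Plagl1 each in 14 of 15 (0.000197 to 0.0604 and 0.00208 to 0.0895). In GO both knockout libraries lay on the same side of both controls for all 4 genes.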

How the results depend on the processing

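Each result counted next is 1 named member in 1 comparison, so a member can count more than once. Of 19 results with a call 8 held under every alternative run, and of 46 without a call 39 stayed without one. No direction reversed. Mcts2, Plagl1 and Snrpn held in GO knockouts under all 11 alternatives (log2 difference 2.99 to 5.84, -5.81 to -3.38 and 2.21 to 3.33). The number of members called moved as follows, and except where a library or group was left out the cause was not tested. At P1 it went from 0 to 2 with limma-voom and to 1 with only the groups compared. At P5 it went from 0 to 1 with quantile normalisation and with limma-voom, and to 0 to 2 on leaving out single libraries. In P10 NGO it went from 1 to 0 with a pseudocount of 0.1, no filter, the replicate block or only the groups compared, to 2 with quantile normalisation, and to 0 to 1 on leaving out single libraries, while limma-voom made 1 call, Mest in place of Zdbf2. In GO knockouts 3 to 5 of 6 calls were made with single libraries left out. In spermatogonia a filter at 5 TPM gave 2 in place of 0. In P5 against P1 controls fitting only the groups compared gave 1 in place of 0. For control growth 6 to 9 members were called with single libraries left out. For the difference of effects GO minus NGO the 4 calls became 2 with no filter, limma-voom or the replicate block, 1 with only the groups compared, and 2 to 5 with single libraries left out.

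Counts over all genes moved too. In P1 the 348 calls became 72 with the replicate block, 190 with a filter at 5 TPM and 71 to 235 with single libraries left out. In P5 the 278 became 0 with the block or only the groups compared, 56 with that filter, 449 with no filter and 22 to 396 with single libraries left out. In P10 NGO the 393 became 28 with the block, 0 with only the groups compared, 626 with the lower pseudocount, 211 with no filter, 939 with quantile normalisation, 754 with limma-voom and 282 to 1260 with single libraries left out. In GO knockouts the 2827 became 1527 with only the groups compared and 1744 to 2520 with single libraries left out. In P5 against P1 controls the 962 became 466 with the block, 2358 with only the groups compared and 249 to 486 with single libraries left out. For the difference of effects the 1527 became 711 with the block and 385 with only the groups compared at P10, with 64.8% of calls higher and 52.7% after quantile normalisation, with 900 to 2168 on leaving out single libraries. The 64 at P5 minus P1 became 139 with the lower pseudocount, 16 with a filter at 5 TPM, 318 with no filter, 166 with limma-voom, 0 with the block, 10 with only the groups compared and 16 to 90 with single libraries left out. In spermatogonia 0 became 56 with a filter at 5 TPM, 1 with quantile normalisation, 1 with limma-voom and 0 to 24 with single libraries left out. Replicate numbers were shared between groups, but same-numbered libraries did not deviate together (r = -0.05 to 0.04 over genes), so the numbers are taken as names only.

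With 2 libraries per group and 15.3 to 30.1 M reads, low levels can rest on a few reads. The TPM at which this holds is higher for shorter genes, and exon length ran from 912 bases (Mcts2) to 93092 (Kcnq1ot1). A member that missed the threshold is not shown to be unaffected. When 1 library of a group was left out, the other was assumed to vary like those of the remaining groups.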
